A study of Mus musculus with 4 samples.

Results

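Spots rich in endocardial and trabecular marker RNA were picked out in sections of 4 cryoinjured neonatal mouse hearts. In each section, spots with at least 500 UMIs (unique molecular identifiers, counted RNA molecules) were kept, and the 10% in which the matrix genes Col1a1, Col1a2, Col3a1, Postn, Fn1 and Tnc took the largest part of the UMIs were set aside. Of the remaining spots, the 10% with the highest UMI share for Npr3, Plvap, Gja5 and Bace2 were taken, and are called marker-rich spots here. They numbered 273 of the 3056 spots kept in all 4 sections, with 40, 59, 69 and 105 in the sections taken 1, 4, 7 and 14 days after injury. They were set against the other remaining spots of their own section, 361, 537, 628 and 953 in the same order.

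The hearts came from ICR mice injured on postnatal day 1 by holding a cooled probe against the left ventricular apex for 5 seconds. They were taken 1, 4, 7 and 14 days later (d1, d4, d7 and d14), at postnatal days 2, 5, 8 and 15, and RNA was captured from 10 µm sections on Visium arrays. Each day had 1 section, every section came from an injured heart, and no section of an uninjured heart was analysed here. The series title names the transcription factor Egr1, regenerative senescence and cardiac repair.

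The endocardium is the endothelial sheet that lines the heart's chambers. In the developing ventricle it covers trabeculae, muscular ridges that project into the cavity, and it exchanges signals such as neuregulin, Notch ligands, bone morphogenetic proteins and endothelin with the muscle beneath. Around birth the trabeculae thin as the compact wall grows, and the Purkinje fibres of the conduction system lie just under the endocardium. Of the genes that chose the spots, Npr3 encodes the natriuretic peptide clearance receptor, Plvap a protein of endothelial diaphragms, Gja5 the gap junction protein connexin 40, and Bace2 an aspartyl protease. A Visium spot is a small region that can hold several cells, so a marker-rich spot is not a pure piece of endocardium or trabecula.

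The values that chose the spots were small. The median marker-rich spot held 4, 3, 2 and 2 UMIs of the 4 scoring genes at d1, d4, d7 and d14, and the richest held 18, 17, 5 and 7. A single scoring UMI placed 8, 3, 32 and 42 spots among the marker-rich (20%, 5.08%, 46.4% and 40% of them). At least 2 of the 4 genes were seen in 27, 47, 21 and 42 marker-rich spots. Just inside the limit, the lowest shares in the 4 sections were 438, 275, 139 and 292 per 1000000 UMIs. Just outside it, the highest shares among other spots were 437, 274, 138 and 292 per 1000000. Of the other spots, 63.7%, 67.6%, 88.2% and 89.1% held no scoring UMI.

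Levels are given as CPM, UMIs per 1000000 UMIs without the scoring, haemoglobin and mitochondrially encoded genes, pooled over the spots of a group. By construction the scoring genes were higher in marker-rich spots. Plvap had 429, 185, 109 and 248 CPM there at d1, d4, d7 and d14, against 38.2, 16.4, 4.88 and 11.9 CPM in other spots, and it gave the largest share of the scoring UMIs in every section (47.4%, 39.0%, 35.2% and 41.5%). Npr3 had 231, 107, 68.1 and 172 CPM, against 17.6, 10.9, 2.76 and 8.53 CPM. Bace2 had 118, 136, 88.3 and 110 CPM, against 11.03, 17.7, 5.31 and 5.97 CPM. Gja5, with the fewest UMIs over the 4 sections, had 127, 47.8, 42.9 and 67.7 CPM, against 12.1, 8.31, 2.97 and 4.27 CPM.

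Whether the scoring genes mark the same places was read by leaving out each in turn, choosing spots by the other 3. The gene left out was higher in the chosen spots in every section, and all 16 intervals lay above 1. Ratios carry an exact conditional binomial (Clopper-Pearson) 95% interval in brackets, which covers counting error only. Over the 4 days Npr3 had ratios of 5.80 (3.69 to 8.96), 4.29 (2.77 to 6.54), 6.16 (2.97 to 12.2) and 4.08 (2.50 to 6.48). Plvap had 5.82 (4.25 to 7.91), 4.20 (2.99 to 5.84), 2.77 (1.38 to 5.15) and 3.59 (2.36 to 5.34). For Gja5 the ratios were 8.43 (4.84 to 14.5), 2.61 (1.36 to 4.73), 3.36 (1.22 to 8.04) and 3.81 (1.71 to 7.89), and for Bace2 they were 6.04 (3.24 to 10.9), 2.83 (1.89 to 4.15), 3.11 (1.54 to 5.85) and 4.87 (2.70 to 8.54).

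**Figure D1:**
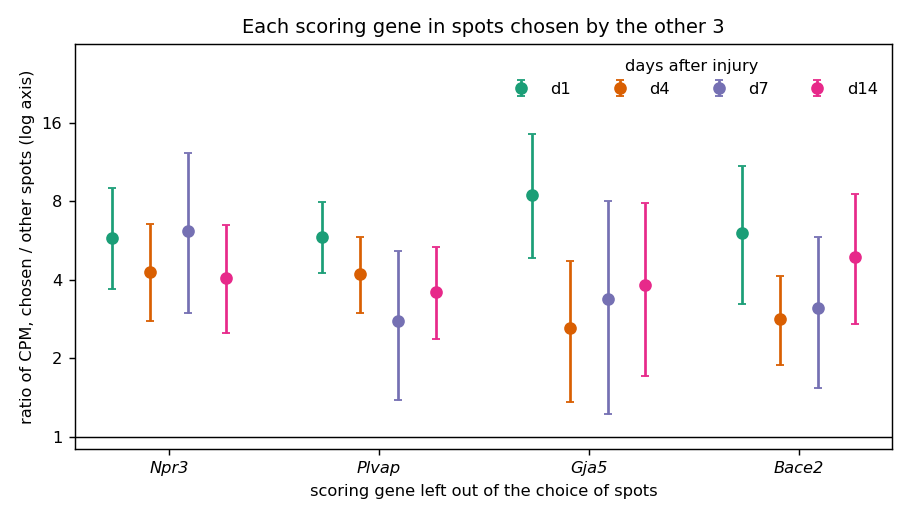
Ratio of CPM (log axis) of each scoring gene in spots chosen by the other 3 over the other spots, by day after injury. Points are the 4 sections, bars are exact 95% intervals for counting error, and all 16 intervals lie above the line at 1.

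The sections held 3419864, 6187656, 6358894 and 4741982 UMIs at d1, d4, d7 and d14. Marker-rich spots had a median of 4604.5, 7261, 6336 and 3369 UMIs, against 8061, 7493, 8306.5 and 3774 in other spots, so their median was the lower one in every section. Their median number of detected genes was 2101, 3088, 2266 and 1559, against 2750, 2876, 2723.5 and 1601, and was the higher one at d4. Mitochondrially encoded RNA was lower in marker-rich spots in all 4 sections, at 0.819 (0.803 to 0.835), 0.698 (0.689 to 0.708), 0.851 (0.843 to 0.859) and 0.823 (0.813 to 0.833) times the level of other spots. Haemoglobin RNA had ratios of 1.04 (0.917 to 1.17), 0.666 (0.629 to 0.705), 1.24 (1.20 to 1.29) and 0.926 (0.884 to 0.970). The sections used one array grid, and of 1328 distinct spot barcodes 1000 occurred in at least 2 sections and 247 in all 4. Spots from the same heart are not replicates, and the genes were compared in the spots chosen from the same counts, so no p-value is given and the counts below describe these sections.

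A gene was called higher or lower where it had at least 20 UMIs over both groups of spots, the ratio reached 1.5 in either direction, and the interval did not hold 1. At d1, 697 of 9692 genes were called higher in marker-rich spots (7.19%) and 125 lower (1.29%). At d4, 639 of 11220 were called higher (5.7%) and 191 lower (1.7%). At d7, 360 of 10871 were called higher (3.31%) and 123 lower (1.13%), and at d14, 396 of 10181 were called higher (3.89%) and 129 lower (1.27%). The median log2 ratio over all genes was 0.11, 0.07, 0.03 and 0.03. The excess of higher calls depended on the scaling. With TMM factors, which lowered every log2 ratio by 0.24, 0.13, 0.10 and 0.12 on the 4 days, the higher and lower calls were 372 and 446, 391 and 376, 230 and 214, and 244 and 253. A positive list median smaller than these shifts is therefore below 0 with TMM.

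What recurred over days was a small set. Of 9152 genes tested in every section, 16 were called higher in all 4 (0.175%) and none lower in all 4 (0.0%). Of 10225 tested in at least 3 sections, 63 were called higher in 3 or 4 (0.616%) and 1 was called lower in 3 (0.00978%). They included Vwf, Adamtsl2, Pdlim3, H19, Myl1, Vcan, Tm4sf1, Igfbp3, Mfap2, Igf2, Ece1, Mgp, Fbln1, Mmp2 and Ctla2a. The count depended on how spots were chosen: it was 3 (Vwf, Adamtsl2 and H19) when spots were scored after thinning each to 2500 UMIs, and 6 when the top 10% were taken within 4 equal bands of spots by UMI count. Vwf, Adamtsl2, Pdlim3, H19 and Myl1 were also the 5 called at a ratio of 2 in all 4 sections.

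Vwf encodes von Willebrand factor, the clotting glycoprotein that endothelium stores and secretes, and lies on chromosome 6 from 125546774 to 125686679 (genes placed by GENCODE vM21 on GRCm38). It had 231, 95.6, 60.6 and 254 CPM in marker-rich spots at d1, d4, d7 and d14, against 67.6, 23.2, 16.3 and 49.5 CPM in other spots. The ratios were 3.41 (2.44 to 4.70), 4.12 (2.88 to 5.82), 3.70 (2.24 to 5.92) and 5.13 (3.93 to 6.66). Its UMIs were spread over 25 of 40, 35 of 59, 17 of 69 and 48 of 105 marker-rich spots, with at most 7 in any spot. Vwf was high at d1 and d14 and lower at d4 and d7 in both groups of spots, while the gap between the groups was present in every section.

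Adamtsl2 encodes a secreted glycoprotein of the microfibril matrix (chromosome 2, 27079379 to 27108981). It had 70.7, 101, 70.7 and 195 CPM in marker-rich spots, against 17.3, 29.7, 21.7 and 69.4 CPM in other spots. The ratios were 4.09 (2.13 to 7.45), 3.41 (2.43 to 4.71), 3.26 (2.07 to 5.00) and 2.81 (2.12 to 3.68). It was the gene most often recurring when the choices were varied, called higher in all 4 sections under each of 19 alternatives, against 18 for Vwf, H19 and Myl1 and 5 for Fbln1 and Ctla2a.

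The imprinted neighbours H19, a long non-coding RNA expressed from the maternal copy, and Igf2, a growth factor expressed from the paternal copy, were both higher in marker-rich spots in every section. H19 (chromosome 7, 142575529 to 142578143) had 1819, 954, 348 and 203 CPM, against 502, 430, 145 and 38.7 CPM in other spots. The ratios were 3.62 (3.23 to 4.06), 2.22 (2.01 to 2.45), 2.40 (1.99 to 2.89) and 5.25 (3.89 to 7.04). Igf2 (chromosome 7, 142650766 to 142666816) had 1032, 841, 391 and 375 CPM, against 475, 433, 234 and 140 CPM, with ratios of 2.17 (1.87 to 2.51), 1.94 (1.75 to 2.16), 1.67 (1.40 to 1.98) and 2.68 (2.20 to 3.25). Both genes had lower levels at d7 and d14 than at d1 in marker-rich and in other spots.

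Among muscle genes, Myl1, an alkali light chain of myosin best known from fast skeletal muscle, had 198, 170, 63.1 and 167 CPM in marker-rich spots, against 31.2, 55.8, 22.1 and 76.5 CPM in other spots. The ratios were 6.33 (4.27 to 9.27), 3.05 (2.37 to 3.90), 2.86 (1.77 to 4.46) and 2.18 (1.61 to 2.89). Pdlim3, which encodes an actinin-binding protein of the muscle Z line, had 160, 111, 55.5 and 73.4 CPM, against 39.3, 38.5, 23.8 and 31.0 CPM, with ratios of 4.07 (2.68 to 6.04), 2.88 (2.10 to 3.90), 2.33 (1.41 to 3.71) and 2.37 (1.48 to 3.66). Of 9 skeletal muscle genes checked beside them, 1 could be tested in each section and none was called higher. Their summed level was 14.1, 13.4, 20.2 and 8.47 CPM, against 14.0, 9.40, 11.5 and 11.9 CPM.

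**Figure D2:**
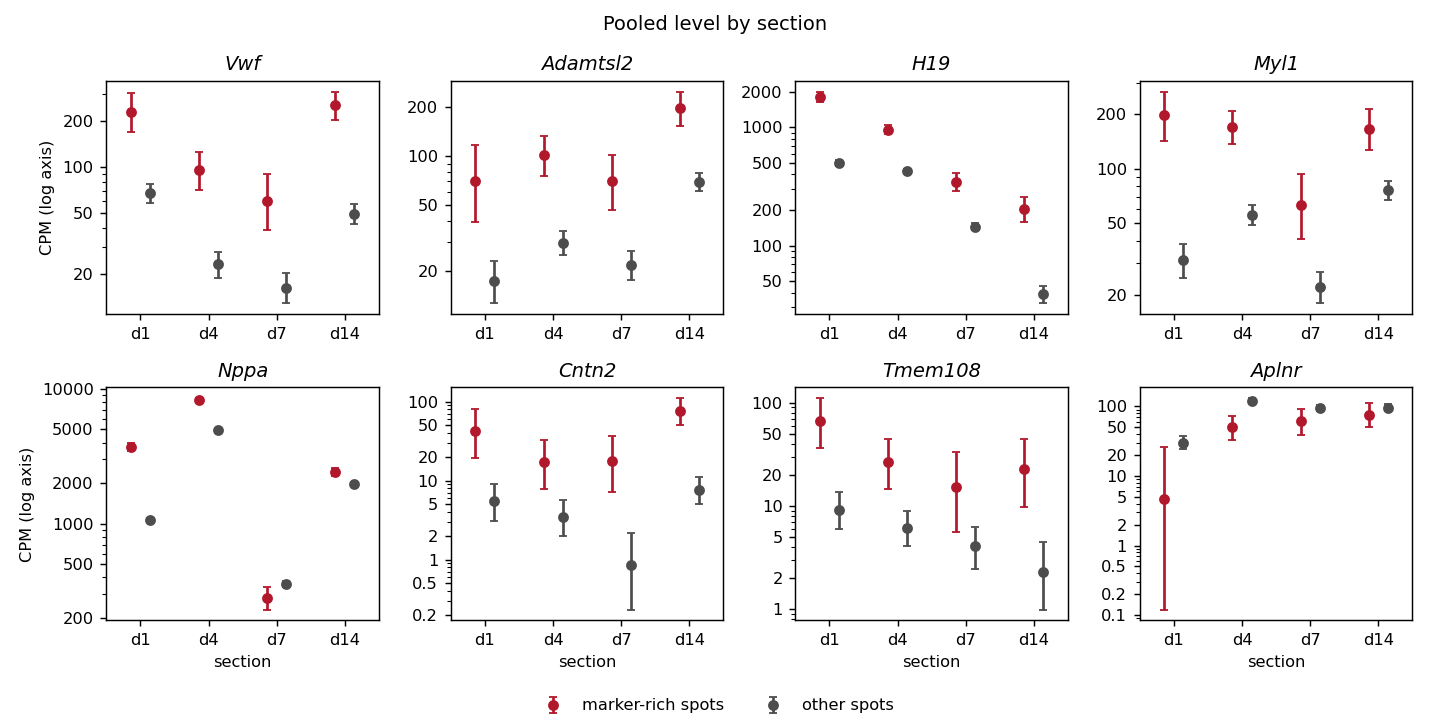
Pooled CPM (log axis) in marker-rich spots (red) and other spots (grey) of each section for Vwf, Adamtsl2, H19, Myl1, Nppa, Cntn2, Tmem108 and Aplnr, with exact Poisson 95% intervals. Vwf, Adamtsl2, H19 and Myl1 were higher in marker-rich spots in all 4 sections, Nppa at d1 and d4, and Aplnr was lower at d1, d4 and d7.

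Several recurring genes encode secreted or matrix proteins. Mgp, the matrix Gla protein that restrains calcification, had 1239, 447, 472 and 2066 CPM in marker-rich spots, against 454, 213, 288 and 1168 CPM, with ratios of 2.73 (2.38 to 3.12), 2.10 (1.81 to 2.42), 1.64 (1.40 to 1.91) and 1.77 (1.63 to 1.91). Vcan, which encodes the cardiac jelly proteoglycan versican, had 66.0, 122, 65.6 and 33.9 CPM, against 26.8, 43.5, 34.6 and 16.2 CPM. Its ratios were 2.46 (1.28 to 4.39), 2.81 (2.09 to 3.74), 1.90 (1.20 to 2.88) and 2.09 (1.02 to 3.94). The microfibril gene Mfap2 had ratios of 3.02, 2.59, 1.72 and 2.25, the fibulin gene Fbln1 had 1.78, 1.76, 1.63 and 1.89, and the gelatinase gene Mmp2 had 2.56, 1.53, 1.53 and 1.55. Igfbp3, which encodes a binding protein for insulin-like growth factors, had 1.85, 1.82, 2.0 and 2.66. Without the spot richest in each gene, Vcan was not called at d1 and d14, nor Mmp2 at d4 and d7. Fbln1 at d1 and Igfbp3 at d7 were also not called then.

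Matrix and fibroblast RNA was itself higher in marker-rich spots, although the spots richest in matrix RNA had been set aside. The 6 matrix genes summed to 2738, 7177, 5259 and 4603 CPM, against 1930, 4152, 3915 and 3061 CPM in other spots. Fibroblast markers summed to 1286, 2639, 2337 and 6215 CPM, against 981, 1623, 1834 and 3813 CPM, with list medians of 0.30, 0.75, 0.41 and 0.49 on the log2 scale and 2, 8, 1 and 4 of 10 genes called higher. When the section's top 10% of spots by the fibroblast list were also left out, Vwf, Adamtsl2, Pdlim3, H19 and Myl1 were still called higher in all 4 sections and the other 11 were not. Mgp was then called in 2 sections, Vcan in 2, Fbln1 in 1 and Mmp2 in 1.

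Of the endothelial genes that recurred, Ece1, which encodes the enzyme that activates endothelin, had 311, 162, 93.4 and 135 CPM in marker-rich spots, against 93.4, 81.6, 55.4 and 81.4 CPM. Its ratios were 3.33 (2.50 to 4.38), 1.99 (1.55 to 2.53), 1.68 (1.16 to 2.38) and 1.66 (1.20 to 2.27). Tm4sf1, a membrane protein abundant in endothelium, had 278, 331, 194 and 274 CPM, against 97.4, 116, 103 and 140 CPM, with ratios of 2.85, 2.84, 1.89 and 1.96. Ctla2a, which encodes a cysteine protease inhibitor, had ratios of 2.14, 1.59, 1.51 and 1.62. Without its richest spot Ctla2a was called at d1 only.

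**Figure D3:**
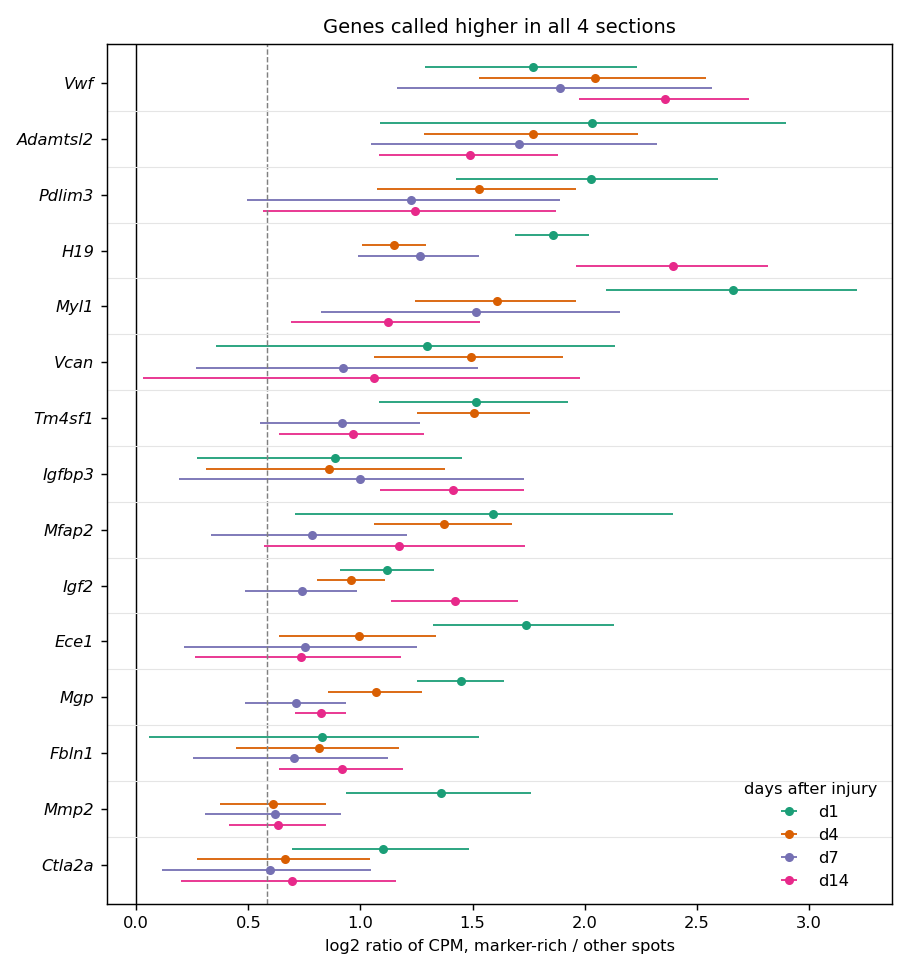
Log2 ratio of CPM in marker-rich over other spots for 15 of the 16 genes called higher in all 4 sections, by day, with exact 95% intervals. The solid line is a ratio of 1 and the dashed line the limit of 1.5; Vwf, Adamtsl2, Pdlim3, H19 and Myl1 lie beyond a ratio of 2 on every day.

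Endocardial genes outside the score were checked with a list of 12. Of those with enough UMIs, 5 of 10, 6 of 10, 3 of 8 and 3 of 8 were called higher on the 4 days, and none was called lower. The share of all genes called higher was 7.19%, 5.7%, 3.31% and 3.89%. The list's median log2 ratio was 1.59, 1.14, 0.89 and 0.26, beside 0.11, 0.07, 0.03 and 0.03 over all genes. Tmem108, which encodes a transmembrane protein, had 66.0, 26.8, 15.1 and 22.6 CPM in marker-rich spots, against 9.19, 6.12, 4.03 and 2.28 CPM. It was called at d1 with a ratio of 7.18 (3.45 to 14.4), at d4 with 4.37 (2.13 to 8.58) and at d7 with 3.75 (1.23 to 9.78), and it had too few UMIs to be tested at d14, where the ratio was 9.92 (3.25 to 30.3). Without its richest spot the d7 ratio of Tmem108 was 2.53 (0.627 to 7.62) and not called.

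Cytl1, which encodes a small secreted protein, was called at d4 and d14. It had 28.3, 38.2, 10.1 and 104 CPM in marker-rich spots, against 10.7, 5.03, 2.34 and 18.5 CPM, and its ratio at d14 was 5.65 (3.67 to 8.58). Cgnl1, a component of cell junctions, was called at d4 with 1.99 (1.38 to 2.81), at d7 with 1.87 (1.05 to 3.14) and at d14 with 2.73 (1.55 to 4.59). The d7 call of Cgnl1 was lost without its richest spot, at 1.56 (0.825 to 2.73). Smoc1, a secreted matricellular gene, was called at d1 with 9.40 (3.91 to 21.9), or 6.22 (2.15 to 16.2) without its richest spot, and at d4 with 4.14 (1.65 to 9.60). Foxc1, a forkhead transcription factor, was called at d1 only, with 8.72 (4.42 to 16.8). Nfatc1, the transcription factor used as an early endocardial marker, had 28.3, 13.4, 22.7 and 22.6 CPM, against 11.03, 12.2, 12.3 and 16.2 CPM, and was called in no section. Hapln1 was at 0 in marker-rich spots in all 4 sections, but it was below the UMI minimum over both groups in each.

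Trabecular muscle genes outside the score were called mostly on the early days. Of the trabecular muscle list, 6 of 9, 4 of 8, 1 of 8 and 0 of 7 genes tested were called higher at d1, d4, d7 and d14, with medians of 1.80, 0.63, 0.44 and 0.07. Beside them, 7.19%, 5.7%, 3.31% and 3.89% of all genes were called higher, so the counts at d7 and d14 are near background. Nppa, the atrial natriuretic peptide gene that ventricular trabeculae express around birth, had 3690, 8297, 280 and 2419 CPM in marker-rich spots, against 1062, 4927, 356 and 1980 CPM in other spots. Its ratio was called at d1, at 3.47 (3.21 to 3.76), and at d4, at 1.68 (1.63 to 1.74), or 1.47 (1.42 to 1.53) and not called at d4 without the marker-rich spot that held most of its UMIs. The ratio was 0.786 (0.643 to 0.953) at d7 and 1.22 (1.14 to 1.31) at d14. With 1 and 0 trabecular genes called at d7 and d14, the spots of those days are described by their leading genes instead. These were Vwf, Adamtsl2 and Myl1 at d7 and Cntn2, Cytl1, H19, Vwf and S100a9 at d14, of which the S100a9 call rested on 1 spot.

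Of the other trabecular genes, Slit2, which encodes a secreted guidance ligand, had 56.5, 30.6, 12.6 and 19.8 CPM in marker-rich spots, against 6.25, 12.7, 4.67 and 3.41 CPM, and was called at d1 with 9.05 (3.94 to 20.1) and at d4 with 2.41 (1.29 to 4.25). The d4 call of Slit2 did not hold without its richest spot, at 1.98 (0.997 to 3.66). Myl4, an embryonic and atrial myosin light chain, had 132, 180, 32.8 and 2.82 CPM, against 25.4, 72.6, 21.5 and 9.96 CPM, and was called at d1 with 5.20 (3.23 to 8.18) and at d4 with 2.47 (1.95 to 3.12). Bmp10, a growth factor of embryonic trabeculae, had 33.0 CPM at d1, against 4.78 CPM, with a ratio of 6.90 (2.33 to 18.6), which without its richest spot was 4.11 (0.976 to 13.3) and not called. It had no UMI in marker-rich spots on later days, when other spots held 1, 0 and 0 UMIs at d4, d7 and d14. Nppb, which encodes B-type natriuretic peptide, had ratios of 1.5 (0.973 to 2.22), 1.05 (0.826 to 1.31), 0.923 (0.736 to 1.14) and 0.706 (0.506 to 0.963) and was called in no section.

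Genes of the ventricular conduction system were called higher in every section, with 6 of 8, 4 of 8, 3 of 6 and 2 of 7 of those tested and medians of 1.89, 0.79, 0.95 and 0.79. Over all genes the shares called higher were 7.19%, 5.7%, 3.31% and 3.89%. The medians depended on how spots were chosen: after thinning they were 0.26, 0.26 and -0.03 at d4, d7 and d14, and with atrial spots left out 0.79 at d1. The list shares the subendocardial position of connexin 40, which is itself a Purkinje gene and chose spots. In spots holding Gja5, against spots without it, the list had medians of 0.72, 0.38, 0.37 and -0.31. There 4 of 8, 1 of 8, 0 of 6 and 0 of 7 were called higher. In spots holding Npr3 the medians were 0.93, 0.47, 0.57 and 0.26, and in those holding Plvap 0.895, 0.71, 0.47 and 0.14. Spots holding Bace2 had a lower median than those holding Gja5 at d7 only, at 0.25. Why the list was higher in marker-rich spots was not tested. Cntn2, a cell adhesion gene that marks Purkinje fibres in the mouse, had 42.4, 17.2, 17.7 and 76.2 CPM in marker-rich spots, against 5.51, 3.498, 0.849 and 7.68 CPM. It was called at d1 with 7.69 (2.97 to 18.8), at d4 with 4.92 (1.92 to 11.8) and at d14 with 9.92 (5.6 to 17.6), and it was below the UMI minimum at d7, with 20.8 (5.29 to 96.9). Cacna2d2, a calcium channel subunit gene, was called at d1 with 15.4 (7.32 to 32.8) and at d4 with 6.44 (2.99 to 13.5). Id2, an inhibitor of basic helix-loop-helix factors, had 226, 111, 65.6 and 45.2 CPM, against 41.2, 34.5, 30.8 and 26.2 CPM, and was called at d1, d4 and d7 with 5.49, 3.21 and 2.13. Without Gja5 in the score, 9 genes recurred, all of them among the 16. None of the 16 is in the conduction list, so that count does not bear on the conduction genes.

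Genes common to all endothelium were little enriched, with 4, 2, 1 and 2 of 20 called higher and medians of 0.32, 0.07, 0.12 and 0.10. Among all genes 7.19%, 5.7%, 3.31% and 3.89% were called higher. Emcn, which encodes the sialomucin endomucin, was called at d1 with 3.5 (2.42 to 4.98), at d4 with 1.88 (1.41 to 2.47) and at d14 with 1.62 (1.06 to 2.39). Eng, the co-receptor endoglin, was called at d1, d7 and d14 with 1.65, 2.0 and 1.84. Emcn at d14 and Eng at d1 were not called without the spot richest in each. Cdh5, the cadherin of endothelial junctions, had 113, 210, 207 and 229 CPM in marker-rich spots, against 135, 216, 224 and 208 CPM in other spots, and was called in no section.

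Capillary endothelial genes were lower in marker-rich spots on the early days. Of 14 genes 5, 6, 2 and 0 were called lower at d1, d4, d7 and d14, none was called higher, and the medians were -0.82, -0.72, -0.22 and -0.09. Among all genes 1.29%, 1.7%, 1.13% and 1.27% were called lower. Aplnr, the apelin receptor, had 4.71, 49.7, 60.6 and 76.2 CPM in marker-rich spots, against 30.1, 121, 94.1 and 95.9 CPM in other spots. It was the gene called lower in 3 sections, with 0.156 (0.00391 to 0.896) at d1, where marker-rich spots held 1 UMI of it, then 0.411 (0.266 to 0.609) at d4 and 0.644 (0.408 to 0.971) at d7, and had 0.795 (0.516 to 1.18) at d14. Fabp4, a fatty acid carrier of capillaries, had 1272, 1120, 1211 and 2074 CPM, against 2238, 1576, 1453 and 2138 CPM, and was called lower at d1 with 0.568 (0.501 to 0.642). Gpihbp1, which holds lipoprotein lipase on the capillary wall, was called lower at d1 with 0.313 (0.166 to 0.540), and the receptor gene Kdr at d4 with 0.569 (0.419 to 0.758). A lower pooled level cannot tell fewer cells of a type from less RNA per cell.

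Arterial genes had 2, 3, 2 and 1 of 10 called higher, 1 called lower at d4, and medians of 0.52, 0.39, -0.08 and 0.12, of which that at d7 changed sign under 12 alternatives. Beside these counts, 7.19%, 5.7%, 3.31% and 3.89% of all genes were called higher. Gja4, the arterial connexin 37, was called at d1 with 3.79 (1.87 to 7.16), at d4 with 1.83 (1.21 to 2.69) and at d7 with 1.84 (1.06 to 3.05). At d7 Gja4 was not called without its richest spot, at 1.46 (0.772 to 2.54). Of 6, 6, 7 and 7 venous and lymphatic genes tested, 1, 1, 0 and 0 were called higher, with medians of 0.12, 0.18, 0.32 and -0.20. The calls were Lyve1 at d1 with 6.03 and Nr2f2 at d4 with 1.80, and neither held without its richest spot. Ackr1 and Mmrn1 were at 0 in marker-rich spots at d1, d4 and d7, where both were below the UMI minimum. The scoring genes differed in how the endocardial and arterial lists moved with them. In spots holding Gja5, the endocardial list had medians of 1.03, 0.40, 0.10 and -0.20 and the arterial list 0.94, 0.33, 0.55 and 0.31 against spots without it. In spots holding Npr3, the endocardial list had 1.09, 0.83, 0.97 and 0.70 and the arterial list -0.23, 0.21, -0.01 and 0.08.

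Signalling lists were described by role. Among bone morphogenetic protein genes, 7, 1, 3 and 1 of 10 were called higher over the days and 1 was lower at d7, with medians of 1.06, 0.52, 0.67 and 0.13. Over all genes 7.19%, 5.7%, 3.31% and 3.89% were called higher, and 1.13% lower at d7. The ligand gene Bmp6 had 70.7, 32.5, 35.3 and 25.4 CPM in marker-rich spots, against 14.0, 20.1, 19.3 and 21.3 CPM, and was called at d1 with 5.06 (2.59 to 9.42). The target genes Id1 and Id3 were called at d1 with 1.93 (1.32 to 2.77) and 1.99 (1.43 to 2.73). In the endothelin and natriuretic list, 4, 5, 2 and 1 of 9 genes were called higher. A single call in either list is near the share over all genes. Edn1, the endothelin ligand, had 56.5, 22.9, 5.05 and 8.47 CPM, against 5.51, 9.40, 4.88 and 9.10 CPM, and was called at d1 with 10.3 (4.38 to 23.5) and at d4 with 2.44 (1.17 to 4.71). Without its richest spot the d4 ratio of Edn1 was 1.91 (0.817 to 3.97) and not called. Corin, the protease that activates natriuretic peptides, was called at d1 with 2.30 (1.58 to 3.28).

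Of 12, 13, 12 and 12 Notch genes tested, 0, 1, 2 and 0 were called higher, with medians of 0.13, 0.24, 0.18 and -0.09. In the same list 1 gene was called lower at d4 and 1 at d14. The shares over all genes were 7.19%, 5.7%, 3.31% and 3.89% higher and 1.29%, 1.7%, 1.13% and 1.27% lower. A single call in a short list is near that background. The receptor gene Notch1 had 61.3, 55.4, 42.9 and 16.9 CPM in marker-rich spots, against 32.3, 53.8, 39.9 and 52.6 CPM, and was called lower at d14 with 0.322 (0.117 to 0.714). No gene of the neuregulin and ErbB list was called in either direction, with medians of 0.01, -0.33, 0.14 and -0.19. Nrg1, the endocardial ligand itself, was below the UMI minimum in every section, with 9.42, 15.3, 0 and 8.47 CPM, against 0.735, 1.97, 0.425 and 1.14 CPM. The shear response list had 1, 1, 0 and 1 of 7 called higher, among them Nos3, the endothelial nitric oxide synthase, at d14 with 2.61 (1.61 to 4.09). Haemostasis genes had 2 of 6, 2 of 7, 1 of 7 and 2 of 7 called higher, Vwf among them each time. Basement membrane and cardiac jelly genes had 4, 2, 1 and 3 of 11 called higher. Valve genes had 1 of 3, 2 of 7, 1 of 7 and 1 of 4, and Vcan was among those called in both lists each time. In the valve list Scx at d4 and Tbx20 at d14, both transcription factor genes, were called lower.

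Of 15 genes of mature heart muscle none was called in any section, and the list had medians of -0.24, -0.32, -0.09 and -0.14. The respiratory chain list, with 0 of 13 called, had -0.31, -0.27, -0.11 and -0.10. Fatty acid oxidation genes had 3 of 14 called lower at d1, 1 at d4 and none later, with medians of -0.41, -0.44, -0.17 and -0.12. Acadm, a medium-chain acyl-CoA dehydrogenase, had 509, 377, 631 and 799 CPM in marker-rich spots, against 790, 593, 696 and 881 CPM, and was called lower at d1 with 0.644 (0.526 to 0.782) and at d4 with 0.635 (0.547 to 0.735). Immature muscle genes had 4, 2, 0 and 0 of 8 called higher and medians of 0.60, 0.16, -0.01 and -0.13, and Acta1, skeletal alpha-actin, was called higher at d1, with 2.24 (1.60 to 3.09), and lower at d4 and d14. The d1 call rested on 1 spot with 31 of the 45 UMIs, and without it the ratio was 0.720 (0.388 to 1.23).

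Of the proliferation list 1 of 19, 0 of 20, 0 of 20 and 0 of 9 genes were called higher, Mki67 at d1 with 2.03 (1.04 to 3.67). Of the senescence and arrest list 1 of 10, 0 of 10, 0 of 10 and 0 of 9 were, the cell cycle inhibitor gene Cdkn1c at d1 with 2.35 (1.11 to 4.51). The share at d1 over all genes was 7.19%, so a single call is near the background. Neither Mki67 nor Cdkn1c was called without its richest spot. Egr1 had 18.8, 74.5, 73.2 and 11.3 CPM in marker-rich spots, against 9.19, 54.9, 67.3 and 9.10 CPM in other spots. Its ratios were 2.05 (0.519 to 5.94), 1.36 (0.943 to 1.91), 1.09 (0.716 to 1.59) and 1.24 (0.319 to 3.5), and it was called in no section. The immediate early list as a whole had 3 of 10, 2 of 11, 0 of 11 and 0 of 10 called higher, beside 7.19%, 5.7%, 3.31% and 3.89% over all genes, with Zfp36, a regulator of RNA decay, called at d1 and d4 with 2.08 and 1.88. Neither Zfp36 call held without its richest spot.

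**Figure D4:**
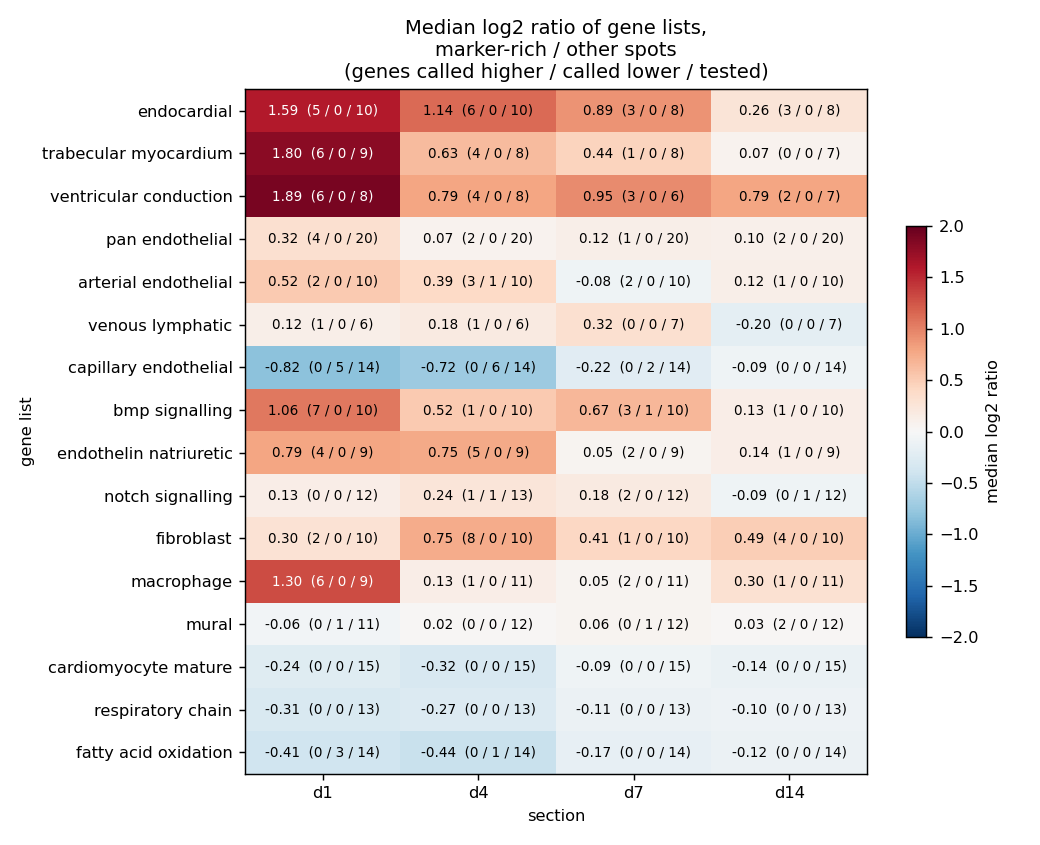
Median log2 ratio of CPM in marker-rich over other spots for 16 gene lists (rows) in the 4 sections (columns), with the number of genes called higher, called lower and tested in each cell. The endocardial, trabecular and conduction lists are highest at d1, and the capillary list is lowest at d1 and d4.

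Markers of other cell types moved with the marker-rich spots on some days. Macrophage genes had 6 of 9 called higher at d1 and 1, 2 and 1 of 11 later, with summed levels of 631, 269, 368 and 818 CPM, against 242, 203, 307 and 723 CPM. Atrial genes summed to 179, 124, 88.3 and 127 CPM, against 86.7, 65.2, 52.4 and 93.3 CPM. Of 4, 5, 3 and 4 tested, 2, 1, 1 and 1 were called higher, with list medians of 0.91, 0.66, 1.07 and 0.60. Stard10 was called at d1, d4 and d14, Myl7 at d1 with 2.14 and Dkk3 at d7 with 2.64. Neither Myl7 nor Dkk3 was called without its richest spot. Sln, a defining atrial gene, was at 0 in marker-rich spots in every section. It was below the UMI minimum over both groups each time, so that absence says little. With the top 10% of spots by the atrial list left out, 11 of the 16 genes were called in all 4 sections. Neutrophil markers summed to 217, 28.7, 7.57 and 118 CPM, against 180.5, 40.0, 23.8 and 31.6 CPM, and S100a9 was called at d1 with 1.55 (1.01 to 2.31) and at d14 with 4.72 (2.95 to 7.41). Without the spot richest in it the d14 ratio was 1.28 (0.528 to 2.67), and neither call held. The part of macrophage and neutrophil RNA in the results was not tested.

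Mural genes had 0, 0, 0 and 2 of up to 12 called higher, the smooth muscle genes Tagln at d14 with 2.73 (2.02 to 3.65) and Myh11 with 2.16 (1.47 to 3.12), while Rgs5 at d1 and Kcnj8 at d7, genes of pericytes, were called lower. Without the spot richest in each, Tagln had 1.48 (0.990 to 2.16) and Myh11 1.23 (0.729 to 1.95), and neither was called. Epicardial genes summed to 37.7, 139.5, 75.7 and 39.5 CPM, against 70.9, 113, 93.6 and 43.8 CPM, with Upk1b, Lrrn4 and Muc16 at 0 in marker-rich spots throughout. Only Krt18 of this list was called, higher at d4 with 1.92, and the call did not hold without its richest spot. Platelet genes summed to 75.4, 51.6, 50.5 and 48.0 CPM, against 58.8, 34.5, 48.0 and 53.2 CPM. Lymphocyte genes were at 0 in marker-rich spots at d1, d4 and d7 and at 11.3 CPM at d14, against 0.735, 4.37, 6.58 and 6.83 CPM. Schwann cell genes stayed at or below 13.4 CPM and adipocyte genes at or below 4.71 CPM in marker-rich spots, and lung epithelial genes were at 0. The red cell list, apart from its haemoglobin genes, had 1 gene tested at d4, d7 and d14 and none called. Of 8 housekeeping genes, B2m was called higher at d1 and no other was called.

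Within marker-rich spots, d4, d7 and d14 were each compared with d1 at a limit of 2-fold. These comparisons share the d1 section, and day, postnatal age, heart and section cannot be told apart in them. The make-up of the marker-rich group also differed by day. At d1, d4, d7 and d14, 20%, 5.08%, 46.4% and 40% of these spots rested on 1 scoring UMI. How far that moves the levels was not tested. At d4, 278 of 6054 genes were called higher than at d1 (4.59%) and 166 lower (2.74%), while in other spots 7.23% and 1.99% of genes were. At d7 these were 156 (3.25%) and 280 (5.83%) of 4802 genes, and 4.97% and 4.09% in other spots. At d14 they were 321 (7.0%) and 380 (8.29%) of 4583 genes, and 8.81% and 8.27% in other spots. Of the 16 recurring genes, 1 was called higher and 3 lower at d4, 0 higher and 10 lower at d7, and 4 higher and 5 lower at d14. In other spots at d7, fewer of the 16 were called lower, namely Vwf, H19, Igf2 and Igfbp3, and Mfap2 was called higher.

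H19 at d14 was 0.112 (0.0856 to 0.144) times its d1 level in marker-rich spots and 0.0771 (0.0641 to 0.0920) times in other spots, and Igf2 was 0.364 (0.291 to 0.453) and 0.295 (0.265 to 0.327) times. Vwf in marker-rich spots at d4, d7 and d14 was 0.414 (0.273 to 0.627), 0.262 (0.154 to 0.436) and 1.10 (0.768 to 1.59) times its d1 level, and in other spots 0.343, 0.242 and 0.732 times. Nppa was 2.25 (2.08 to 2.43), 0.0759 (0.0617 to 0.0927) and 0.656 (0.594 to 0.723) times its d1 level in marker-rich spots, and 4.64, 0.336 and 1.86 times in other spots. Adamtsl2 was called higher at d14 in marker-rich spots, at 2.75 (1.56 to 5.19), and in other spots, at 4.02 (2.93 to 5.61). Fbln1 likewise was 4.13 (2.54 to 7.08) and 3.89 (3.23 to 4.70) times its d1 level.

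The genes furthest from 1 in each section, among those of at least 50 CPM in either group, were mostly not shared. At d1 the highest were Dcpp1, Cacna2d2, Edn1, Smoc1 and Slit2. Dcpp1, a secreted protein gene whose near-identical neighbours could share its reads, had 259 CPM at d1, against 12.1 CPM, and 66.9 CPM at d4, against 15.5 CPM. The lowest at d1 were Nmrk2, Oxnad1 and Me1. Nmrk2, a nicotinamide riboside kinase gene of muscle, had no UMI in marker-rich spots at d1, against 50.4 CPM in other spots, with an upper bound of 0.350 on the ratio. At d4 the highest included Sfrp2, Dcpp1, Stard10 and Vwf, and the lowest Plin5, Pdzd2 and Aplnr. Sfrp2, a secreted Wnt antagonist, had 89.8 CPM at d4, against 19.5 CPM, and was also called at d7 with 3.11 (1.45 to 6.15) and at d14 with 4.74 (2.09 to 10.1), though at neither day without its richest spot, with 1.99 (0.756 to 4.48) and 2.61 (0.870 to 6.60). At d7 the highest were Vwf, Adamtsl2, Myl1, Thap3 and Dkk3 and the lowest Pcyt1a, Ddx39 and Nr2f6. At d14 the highest were Cntn2, Cytl1, H19, Vwf and S100a9 and the lowest Snapin, Mars and Notch1.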

How the data were processed

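Spatial RNA of 4 heart sections was measured with Visium. What the authors deposited is a matrix of unnormalized UMI counts for each section, and the file headers name Space Ranger 1.3.0 as its software. Genome build mm10 and Seurat 4.1.1 are named in the submitters' processing notes, the role of Seurat is not stated, and how the listed spots were selected is not given in the sources used here. Spot positions and images were not used.

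Within a section, the UMIs of all spots in a group were pooled and divided by the total without the 4 scoring, 8 haemoglobin and 13 mitochondrially encoded genes. Shared spot barcodes are positions of the array grid. Ratios carry exact conditional binomial and levels exact Poisson 95% intervals, which cover counting error only; UMIs are counted molecules. With 1 section per day no test between conditions was possible. The calling code was checked on simulated data with known ratios. Software was Python 3.11.15, numpy 2.4.6, scipy 1.17.1, pandas 2.3.3, matplotlib 3.10.9, R 4.3.3 and edgeR 4.0.16, the last for TMM factors only.

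Named genes were up to 25 called higher in all 4 sections, the 5 highest and 3 lowest of each section with at least 50 CPM in a group, and members of 38 gene lists, without predicted, ribosomal protein, haemoglobin, mitochondrially encoded and sex-linked genes; examples from the lists and from the genes called in 3 sections were picked with their values in view. Of 363 list genes 362 were measured. The members and lists were chosen with earlier results of these data known. Alternatives varied the share of spots, UMI minimum, scoring, scaling, pooling, fold and gene minimum, and left out sections or groups of spots. 1 recurring gene is not reported here by name.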

Additional observations from a re-analysis of the deposited data

Results flagged for a closer look

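In 42 genes the call was higher in 1 section and lower in another. Of those that the rule for named genes covers, Acta1, skeletal alpha-actin, had log2 ratios of 1.17 at d1, -0.96 at d4 and -0.94 at d14. Its d1 value rested on 1 spot with 31 of the 45 UMIs, and without that spot the ratio was 0.720 (0.388 to 1.23) and not called. Bmpr2, a receptor for bone morphogenetic proteins, had 1.20 at d1 and -0.86 at d7. Snapin, a gene of vesicle transport, had 1.03 at d1 and -1.88 at d14, and Pcyt1a, a gene of phosphatidylcholine synthesis, had 0.96 at d1 and -1.30 at d7. Without the spot richest in each gene the d1 ratios were 1.67 (0.885 to 2.92) for Snapin and 1.81 (0.978 to 3.11) for Pcyt1a, and neither was called at d1. These differences between sections were not tested.

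The matrix-rich spots set aside before the choice also held the scoring genes. Npr3, Plvap, Gja5 and Bace2 together had 254 CPM there at d4, 246 CPM at d7 and 237 CPM at d14, against 96.7, 38.6 and 82.7 CPM in all remaining spots. The ratios were 2.62 (2.21 to 3.11), 6.39 (5.03 to 8.08) and 2.86 (2.27 to 3.59), and at d1 the ratio was 0.841 (0.574 to 1.19). A share of the scoring RNA of d4, d7 and d14 therefore lay outside the spots described.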

How the results depend on the processing

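None of the 16 recurring genes was called lower in any section under the alternatives. The 16 recurring genes became 7 with the top 20% of spots, 53 with no matrix-rich spots set aside, 3 after thinning to 2500 UMIs, 6 within 4 bands by UMI count, 10 without Plvap in the score, 9 without Gja5, 9 without Bace2 and 5 at 2-fold. Recurrence over 3 sections, leaving out each in turn, gave 19 to 35 genes higher and 0 to 1 lower; the count was 35 without d7 and 34 without d14. With no matrix-rich spots set aside, 915 genes were called higher at d7 and 611 at d14, and thinning gave 339 at d4. TMM scaling gave 372, 391, 230 and 244 higher and 446, 376, 214 and 253 lower on the 4 days. At 2-fold, 74 were lower at d1, 302 higher and 106 lower at d4, 180 higher at d7 and 230 higher at d14. Of the alternatives chosen after seeing the data, removing for each gene the marker-rich spot with most of its UMIs gave 10 recurring genes and 287, 305, 117 and 147 higher and 337, 450, 359 and 392 lower. By construction this removal lowers the ratio wherever the removed spot held a larger share of the gene than the pooled spots. Leaving out fibroblast-rich spots gave 5 recurring, 404 higher at d4 and 262 at d14. Beyond construction the causes were not tested. The endocardial median at d14 ran from -0.06 to 1.45 and the trabecular one from -1.04 to 0.22 over the alternatives, so neither has a settled direction at d14. The trabecular median at d14 changed sign under 11 alternatives, the arterial one at d7 under 12 and the endothelin and natriuretic one at d7 under 9. Genes near 20 UMIs have wide intervals, and marker-rich spots at d7 and d14 often rest on 1 scoring UMI. No paired analysis was possible because each day has 1 section.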

Other observations

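Of the 47 genes called higher in exactly 3 sections, several encode proteins of elastic and cell surface matrix, and they were chosen here after their values were seen. Eln, the elastin gene, had 325, 833, 603 and 897 CPM in marker-rich spots at d1, d4, d7 and d14, against 242, 302, 282 and 395 CPM in other spots, with ratios of 1.35 (1.04 to 1.73), 2.76 (2.47 to 3.07), 2.14 (1.86 to 2.46) and 2.27 (2.01 to 2.57). Hmcn1, which encodes the extracellular protein hemicentin, had 2.91 (1.54 to 5.16), 2.54 (1.79 to 3.55), 2.47 (1.48 to 3.93) and 2.48 (0.987 to 5.50). Cdh11, a cadherin gene, had 80.1, 63.1, 20.2 and 45.2 CPM, against 14.7, 18.1, 11.7 and 10.5 CPM, and was called at d1, d4 and d14 with 5.45, 3.48 and 4.29. Apoe, the lipid carrier gene, was called on the same days with 2.77, 2.39 and 1.80, and the fatty acid carrier gene Fabp5 with 2.25, 1.92 and 2.05.

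Meg3, another imprinted long non-coding RNA gene, had 306, 229, 103 and 56.4 CPM in marker-rich spots, against 98.1, 123, 66.2 and 39.5 CPM, and was called at d1, d4 and d7 with 3.12, 1.87 and 1.56. The imprinted gene Peg3 was called on the same days with 1.80, 1.54 and 1.94. Without the spot richest in each, Meg3 was not called at d7 and Peg3 was not called at d4. In both genes the ratio at d14 was below the limit, at 1.43 (0.846 to 2.29) for Meg3 and 1.16 (0.614 to 2.02) for Peg3.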
